A study of Homo sapiens with 6 samples.

Results

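Chromatin compartments of tamoxifen-resistant T47D cells (TamR) were compared with those of 5 libraries of parental T47D cells, an established estrogen receptor-positive breast cancer line. The comparison was made over the 26484 autosomal bins of 100 Kb that had a score other than 0 in all 6 libraries, out of 28823 autosomal bins and 30376 bins in all. For each bin the TamR score was set against the mean and the whole range of the 5 parental scores. Parental cells went through 72 h of hormone starvation and were fixed without estradiol (E2) as T0, or after 1, 4, 16 and 24 h in 100 nM E2 as T1, T4, T16 and T24, so the parental range covers the E2 course as well as the spread between libraries. Contacts were measured by tethered conformation capture (TCC), a variant of Hi-C with ligation of surface-bound DNA. The sample labels call the TamR cells untreated, whereas the methods of the study describe culture of TamR cells with 100 nM tamoxifen in medium with 10% charcoal-stripped serum. For starvation the parental cells were kept in medium with 5% charcoal-stripped serum. Resistance, drug and medium therefore cannot be told apart. Each condition had 1 library and TamR was 1 cell line, so no test between conditions was possible and every value below is a description of these libraries. Whether replicate T47D cultures were pooled in a library is not stated in the sources used here.

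In the nucleus, regions of open, transcribed chromatin contact each other preferentially and form compartment A, and regions of closed, mostly silent chromatin form compartment B. Tamoxifen competes with E2 for the estrogen receptor, and cells under prolonged tamoxifen can come to grow in its presence. Growth factor receptors and the phosphoinositide 3-kinase pathway downstream of them are among the routes known to sustain growth of such cells. The score used here is the first eigenvector of the contact matrix between chromosomes, in which a positive score places a bin in A and a negative score in B.

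Promoter sequences are shown for a gene with the largest difference at its start in each of the first 2 regions of each direction, since these loci lay farthest from the parental scores. GFRA1, ZNF470 and PIP share their bin, and so their difference, with other starts. In such a case the first start by position with a sequence on file was taken. They are RefSeq sequences of 300 bases, from 250 bases before to 50 bases after a transcript start, on GRCh38.p14 and 5′ to 3′ on the strand of the gene. GREB1 was chosen in addition, for its place among E2-induced genes, and sequences were matched by symbol for the other 4 of these 5 genes. GFRA1 lies at chr10:116274656-116274955 on the minus strand, NYAP2 at chr2:225399460-225399759 on the plus strand, ZNF470 at chr19:56567218-56567517 on the plus strand and PIP at chr7:143131827-143132126 on the plus strand. All other coordinates are of hg19. Capitals mark the 5-letter arm of the estrogen response element, GGTCA or its complement TGACC, searched on both strands.
GFRA1: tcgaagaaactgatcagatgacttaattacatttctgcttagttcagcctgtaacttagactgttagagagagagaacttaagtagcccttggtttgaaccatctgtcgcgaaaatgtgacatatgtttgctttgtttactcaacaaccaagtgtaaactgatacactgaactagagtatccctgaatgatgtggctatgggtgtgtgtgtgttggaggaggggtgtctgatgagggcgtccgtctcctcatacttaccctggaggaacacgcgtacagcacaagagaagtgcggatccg
NYAP2: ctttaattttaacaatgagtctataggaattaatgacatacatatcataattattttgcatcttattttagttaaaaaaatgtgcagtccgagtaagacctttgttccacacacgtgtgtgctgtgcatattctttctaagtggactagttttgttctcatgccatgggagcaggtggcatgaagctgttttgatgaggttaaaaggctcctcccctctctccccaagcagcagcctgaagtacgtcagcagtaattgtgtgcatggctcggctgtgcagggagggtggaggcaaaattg
ZNF470: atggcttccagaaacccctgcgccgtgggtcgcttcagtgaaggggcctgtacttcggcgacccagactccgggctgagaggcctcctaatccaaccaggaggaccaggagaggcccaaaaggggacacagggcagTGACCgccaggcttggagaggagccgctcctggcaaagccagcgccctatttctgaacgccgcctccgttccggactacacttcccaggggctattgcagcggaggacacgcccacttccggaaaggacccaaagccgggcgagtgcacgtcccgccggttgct
PIP: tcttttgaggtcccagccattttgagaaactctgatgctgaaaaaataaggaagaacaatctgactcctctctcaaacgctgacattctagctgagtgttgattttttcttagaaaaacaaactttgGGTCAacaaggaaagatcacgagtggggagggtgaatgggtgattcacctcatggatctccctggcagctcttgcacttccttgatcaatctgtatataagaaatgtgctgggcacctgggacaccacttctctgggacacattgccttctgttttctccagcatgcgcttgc
The windows of ZNF470 and PIP held 1 such arm each, and those of GFRA1 and NYAP2 held 0. Of 35116 promoters of this length in the RefSeq table, 37.4% held at least 1 arm, and 20 held the full element, GGTCA followed by TGACC after any 3 bases, which was in none of the 4 windows shown. A match in such a window is a description of its letters only.

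The scores, multiplied by 1000 throughout, had an SD over bins of 6.03 to 6.05 in each library, and the squared scores of a library summed to nearly 1, so scores are on a scale internal to the library. Contact counts were not part of the processed files, which leaves the depth unknown and allows no counting interval. Pearson correlations over bins, which share their neighbours and are not replicates, were 0.986 to 0.997 between parental libraries and 0.897 to 0.904 between TamR and a parental library. The share of bins in A was 48.3% in TamR and 44.8% to 47.7% in the parental libraries.

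TamR lay away from the parental cells over a large part of the genome. The TamR score was outside the whole parental range in 78.9% of bins. The median absolute difference from the parental mean was 1.41, against a median parental range of 1.07 and median absolute differences of 0.321 to 0.669 between pairs of parental libraries. A bin was called when the TamR score lay beyond the nearest edge of the parental range by at least 3 times that range. By this rule 2370 bins (8.95%) were called up, towards A, and 1949 bins (7.36%) were called down, towards B. Up calls were thus 54.9% of all calls on the deposited scores, but fewer than the down calls (1775 up and 2662 down) when each score was replaced by the normal quantile of its rank in its library, so the balance of directions depends on the scale. The rule reads the range of each bin, and the median range was 0.753 in called bins against 1.14 in bins not called. The median absolute difference was larger in called bins, 4.23 against 1.15, which the rule favours by construction.

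The same rule was applied to each parental library against the other 4. It called 56 bins for T4, 65 for T1, 76 for T16, 285 for T0 and 612 for T24, at most 2.31% of bins. TamR against the same sets of 4 libraries was called in 5083 to 6945 bins, 19.2% to 26.2%. No parental library gave a region of 5 or more adjacent bins called in 1 direction, whereas TamR gave 241 to 324 such regions. T24 stood farthest from the other parental libraries, and without it the calls for TamR rose to 3655 up and 3290 down, in part because fewer libraries span a narrower range.

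**Figure D1:**
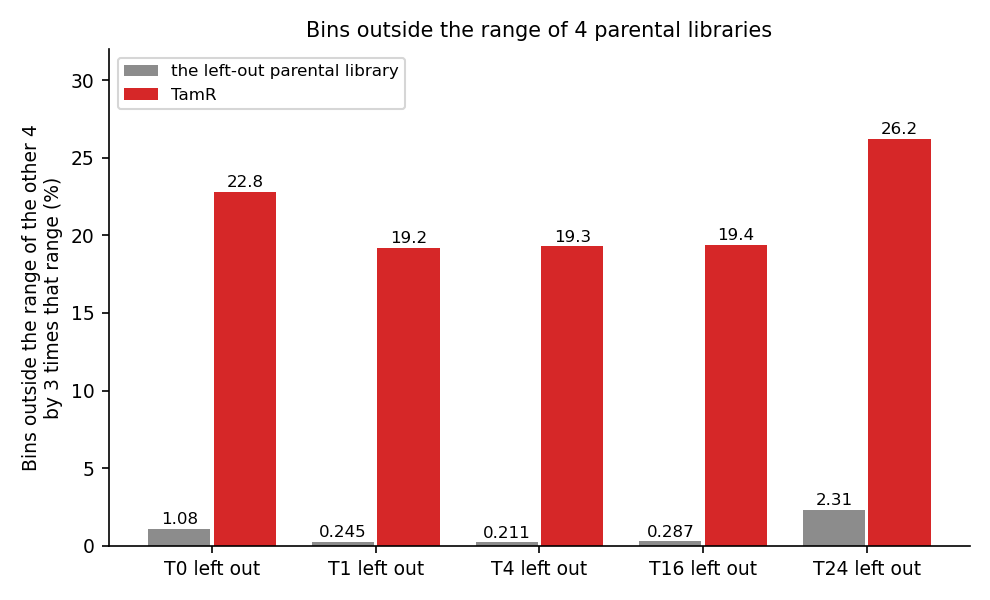
Percent of 26484 autosomal bins outside the range of 4 parental libraries by at least 3 times that range (vertical axis), for each parental library left out (gray) and for TamR against the same 4 (red). TamR was called in 19.2% to 26.2% of bins and the left-out parental library in 0.211% to 2.31%.

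The bins towards A came mostly from chromatin that was in B in all 5 parental libraries. Of the 2370 up calls, 1939 (81.8%) were in B in each parental library, against 46.6% of the bins not called. Of these 1939 bins, 961 had a positive score in TamR and 978 remained negative. Another 353 were in A in every parental library and gained a higher score. The down calls were spread more evenly, with 840 bins from parental A, 426 of which became negative in TamR, 964 from parental B and 145 with both signs among the parental libraries. When bins were sorted into deciles of the parental mean, up calls made up 18.1% of the second-lowest decile and 0.378% of the highest, and down calls were most frequent in the fourth decile, at 13.2%. The median parental range, by which the rule measures distance, was 0.891 in the second-lowest decile and 1.29 in the highest. The origin of the calls was read on the deposited scores only and was not examined on the rank scale.

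**Figure D2:**
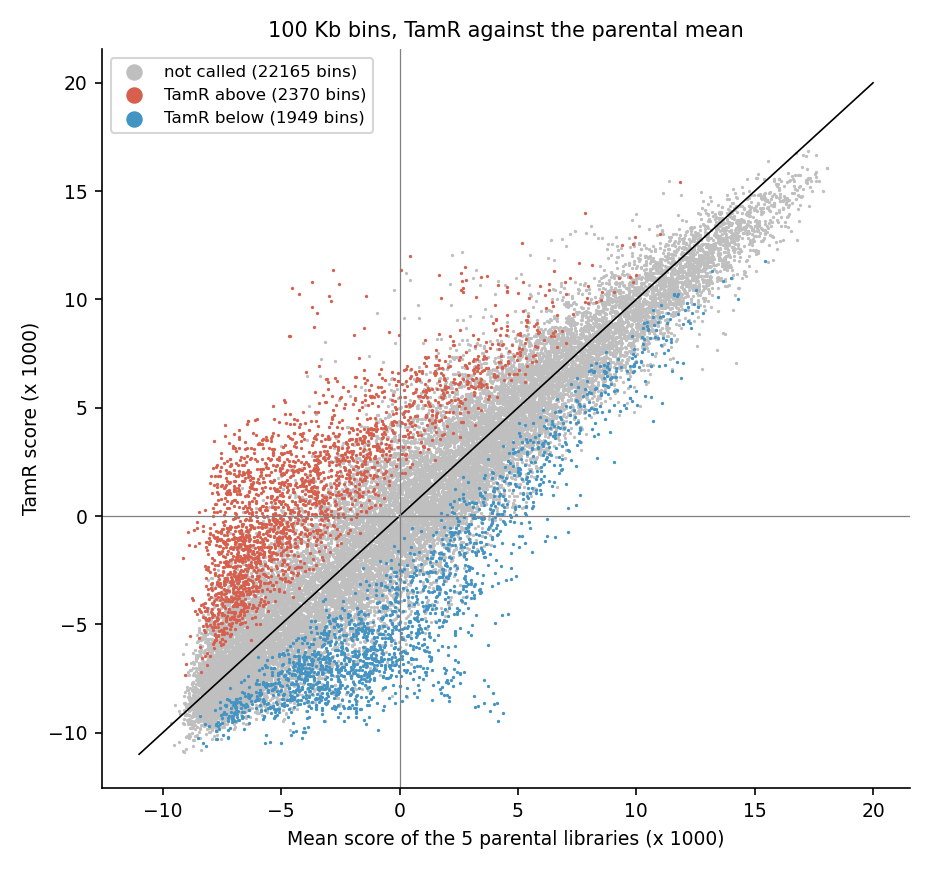
TamR score (vertical axis, times 1000) against the mean score of the 5 parental libraries (horizontal axis, times 1000) for 26484 bins, with the line of equality in black. The 2370 bins called up (red) lie mostly left of 0 on the parental axis, and the 1949 bins called down (blue) lie on both sides of it.

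Called bins formed long runs. Runs of at least 5 adjacent bins called in the same direction, hereafter regions, numbered 138 up (136.6 Mb on 21 autosomes, 57.6% of the up bins) and 82 down (79.7 Mb on 17 autosomes, 40.9% of the down bins). On the rank scale the order of the directions turned, with 81 regions up and 109 down. Their median length was 800 Kb in both directions, and the longest measured 3400 Kb up and 3300 Kb down. By mean score 66 up regions went from B in the 5 parental libraries to A in TamR, 57 were in B throughout and 12 in A throughout. Among the down regions 25 went from A to B, 44 were in B throughout and 6 in A throughout. At the length limit, the 34 up and 15 down runs of exactly 5 bins had median absolute differences of 4.57 and 4.34, and the 29 up and 36 down runs of 4 bins just below it 4.25 and 4.00.

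The difference continued past the edges of the regions. Over the 500 Kb on either side, the mean difference had the sign of the region in 137 of 138 up regions and 82 of 82 down regions. Averaged over edges, the up difference was 5.60 in the fifth bin inside, 4.68 in the first bin inside, 3.40 in the first bin outside and 1.87 at 10 bins outside. The down difference was -5.28, -4.65, -3.80 and -2.59 at the same positions. In up regions it was the parental scores that changed across the edge, from -2.62 just outside to -4.45 in the fifth bin inside, while TamR stayed between 0.779 and 1.17 at these positions. In down regions the parental mean stayed between -0.363 and 0.000752 from the first bin outside to the fifth inside, and TamR went from -4.16 to -5.41.

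**Figure D3:**
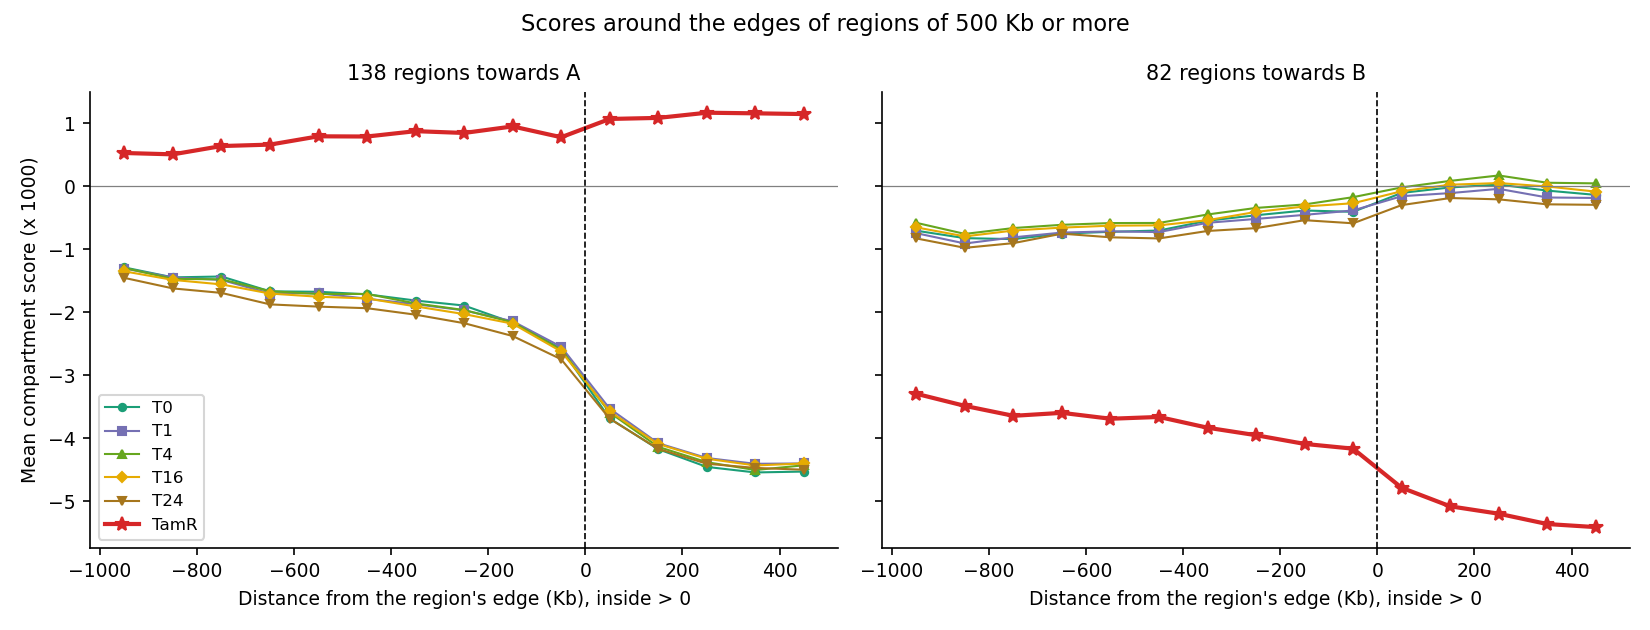
Mean compartment score (vertical axis, times 1000) of each library by distance from the region edge in Kb (horizontal axis, inside above 0), over both edges of the 138 up regions (left) and 82 down regions (right). The 5 parental lines lie close together at every distance, with TamR above them on the left and below them on the right, both inside and outside the edge.

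The region with the largest mean difference towards A lay near the end of the long arm of chromosome 19 (chr19:56700001-58500000) and held 62 protein-coding gene starts, 37 of them zinc finger genes named ZNF. Many proteins of this kind carry a KRAB domain, bind DNA through arrays of C2H2 fingers and recruit repressive chromatin. Its mean score was -1.09 at T0, -0.870 at T1, -1.38 at T4, -0.789 at T16, 0.464 at T24 and 10.2 in TamR, a difference of 10.9 from the parental mean. TamR was the highest library by far, and T24 was the only parental library above 0. In the bin shared by the starts of ZNF470, ZNF471 and ZFP28 the parental scores ran from -5.36 to -3.12 and the TamR score was 10.5. ZNF582 started in a bin with parental scores of -4.54 to -1.61 and a TamR score of 10.8.

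The second region, chr7:142100001-143100000, held PIP (prolactin-induced protein, a secreted protein of apocrine cells), the olfactory receptors OR9A2 and OR6V1 and the bitter taste receptor TAS2R39. Its mean score was -3.40 at T0, -2.20 at T1, -2.77 at T4, -2.91 at T16, -3.63 at T24 and 6.50 in TamR. The PIP start itself lay between -5.19 and -3.83 in the parental libraries and at 8.31 in TamR. All parental libraries were thus in B and TamR was in A. The third region, chr11:15500001-16800000, held the starts of SOX6, a transcription factor of the SOX family, and C11orf58. The parental means ran from -6.19 at T24 to -5.34 at T1, and the TamR mean was 3.69.

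Regions 4 to 10 had mean differences of 7.88 to 8.40. By the mean score of each of them, all 5 parental libraries were in B and TamR in A, which need not hold at every start. Of these 7, 3 lay on the long arm of chromosome 9. They were chr9:80800001-83200000 with TLE4, a corepressor, PSAT1, an enzyme of serine synthesis, and the centrosomal gene CEP78, chr9:112700001-114100000 with TXN (thioredoxin), TXNDC8, SVEP1 and MUSK, and chr9:88900001-90000000 with GAS1, a hedgehog co-receptor, and TUT7. Their TamR means were 1.68, 4.97 and 5.52, against parental means of -6.89 to -6.55, -3.91 to -2.52 and -3.25 to -1.86. The TUT7 start was already in A, at 0.471 to 1.94 in the parental libraries and 6.59 in TamR. The longest up region, chr11:90000001-93400000, held the starts of FAT3, an atypical cadherin, the melatonin receptor MTNR1B, SLC36A4, DEUP1, SMCO4 and CEP295, and moved from parental means of -6.61 to -6.00 to 1.89. Near the end of that region the CEP295 start went from parental scores of -1.83 to -0.863 to 3.90. In chr1:48100001-50000000 the largest differences were at SLC5A9, a sodium-dependent sugar transporter (9.55), and SPATA6 (8.42). BEND5, TRABD2B, FLJ00388 and AL109659.1 started in the same region, with differences of 6.05 to 7.19. Of these, FLJ00388 was already in A in the parental libraries, at 0.312 to 1.75. In chr4:71900001-73900000 lay SLC4A4, a bicarbonate transporter, GC, the vitamin D-binding protein, NPFFR2, a neuropeptide receptor, and ADAMTS3, a protease that trims procollagen, with differences of 3.90, 6.26, 9.25 and 8.90. SLC4A4 stayed in B in TamR, at -0.172. CRIM1 was the only protein-coding start in chr2:34500001-36600000, and its score went from parental values of -4.73 to -4.04 to 2.78.

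**Figure D4:**
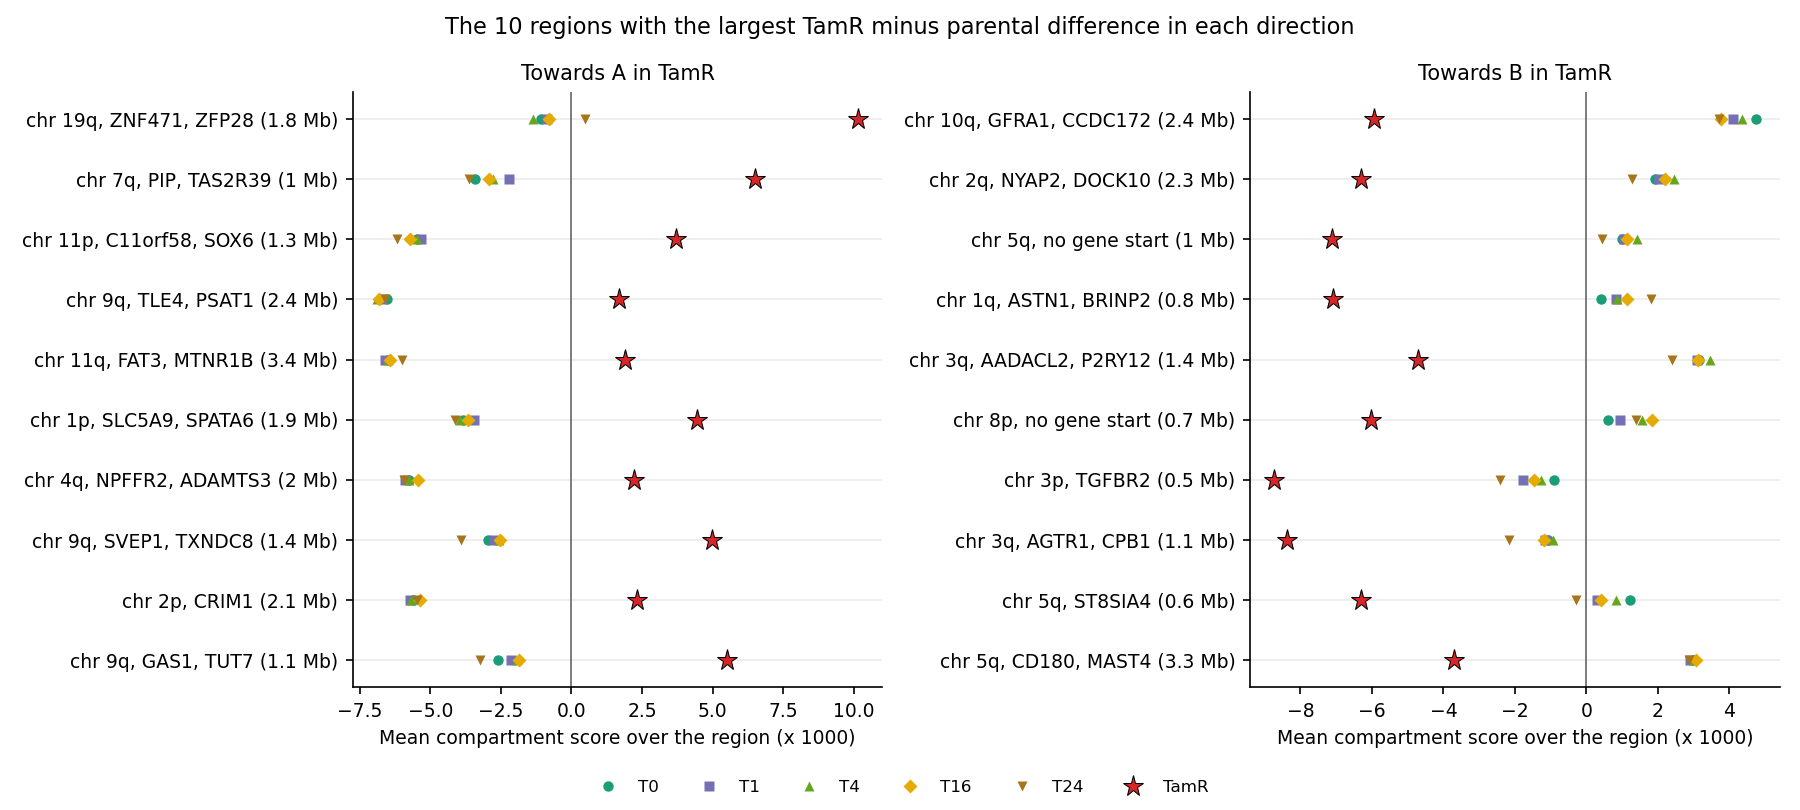
Mean compartment score (horizontal axis, times 1000) of each library over the 10 regions with the largest difference towards A (left) and towards B (right), each labelled by arm, up to 2 genes that start in it and length. Stars are TamR and the other symbols the parental libraries. In each of these regions TamR lies outside all parental values, as the calling of their bins requires.

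Towards B, the largest mean difference was at chr10:116600001-119000000, a region of 14 gene starts that includes GFRA1, the co-receptor through which GDNF activates the RET kinase, and the pancreatic lipase genes PNLIP and PNLIPRP3. Its mean score was 4.73 at T0, 4.09 at T1, 4.34 at T4, 3.76 at T16, 3.72 at T24 and -5.94 in TamR, a difference of -10.1, and all 24 bins changed sign. The bin with the starts of GFRA1 and CCDC172 scored 2.90 to 4.64 in the parental libraries and -7.85 in TamR. No other scored gene start in the genome had a more negative difference than the -11.6 of that bin. The second region, chr2:225700001-228000000, held DOCK10, NYAP2, RHBDD1 and IRS1, the adaptor of the insulin and IGF1 receptors. Its mean was 1.91 at T0, 2.04 at T1, 2.46 at T4, 2.21 at T16, 1.26 at T24 and -6.29 in TamR. All 23 bins went from A to B. Across its starts the differences ran from -5.96 at RHBDD1 to -10.3 at NYAP2.

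Regions 3 to 10 had mean differences of -8.12 to -6.67. Those at chr5:117200001-118200000 and chr8:20700001-21400000 held no protein-coding start. The region chr3:150300001-151700000 held SIAH2, a ubiquitin ligase induced by E2, together with the ADP receptor P2RY12, IGSF10, AADACL2 and AADAC, whose scores were all above 0 in the parental libraries and between -8.28 and -0.925 in TamR. In chr1:177100001-177900000 the neuronal genes ASTN1 and BRINP2 shared a bin that lay between -0.673 and 1.30 in the parental libraries, with signs of both kinds, and at -7.37 in TamR. Further regions held TGFBR2, a receptor for transforming growth factor beta (chr3:30200001-30700000), the angiotensin receptor AGTR1 with the carboxypeptidases CPB1 and CPA3 (chr3:147600001-148700000), and ST8SIA4, which adds polysialic acid (chr5:99900001-100500000). TGFBR2 was already in B in the parental libraries, at -1.80 to -0.533, and scored -7.47 in TamR. AGTR1 had parental scores of -0.584 to 0.768 and a TamR score of -8.32. The longest down region, chr5:65400001-68700000, held 13 starts, including PIK3R1, MAST4, CD180 and CCNB1, which encodes cyclin B1. CCNB1 stayed in A, with parental scores of 6.62 to 7.39 and 2.18 in TamR.

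Gene starts were then read by the bin they fall in. Of 18862 protein-coding genes with a scored start, 1060 (5.62%) started in a bin called up and 849 (4.5%) in a bin called down, and the median difference over all of them was -0.470. Genes that start in the same bin share its score, so these 18862 starts stand for 10083 bins. A compartment score is no measure of RNA, and whether the transcripts of the genes named here differed was not analysed here.

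Among 36 genes known to respond to E2, 6 (16.7%) were called down and 2 (5.56%) up, beside 4.5% and 5.62% of all starts. The median difference was -0.968. The down calls outnumbered the up calls on every scale tried, all of them rescalings of the same libraries. The counts were 8 down and 2 up on the rank scale and 6 and 2 after the mean of each chromosome or arm was subtracted. The list was chosen with earlier results of these data known, so its counts are no test of a direction for genes that respond to E2. Other lists described below had similar medians, -0.949 for luminal markers, -0.902 for receptor coregulators and -1.31 for estrogen and tamoxifen metabolism. Such a median was thus not particular to the E2 list. PGR (chr11:100900355-101000544), the progesterone receptor and a classical marker of estrogen receptor activity, had scores of 0.171 at T0, 1.27 at T1, 1.02 at T4, 0.993 at T16, 0.796 at T24 and -6.92 in TamR. The 5 parental libraries were weakly in A and TamR was deep in B. SIAH2 (chr3:150458912-150481264) scored 5.10, 5.39, 5.50, 5.01 and 4.86 in the parental libraries in order of time and -0.925 in TamR. GREB1 (chr2:11622467-11782914), a cofactor of the receptor that is strongly induced by E2, scored 5.10, 5.01, 5.54, 5.36 and 4.56 in the same order and -0.326 in TamR. For both genes the parental libraries lay close together and TamR was just below 0. The other 3 genes called down, PDZK1, NPY1R and CELSR2, were named after their values were seen and had differences of -5.003, -4.12 and -2.96. The up calls were RERG, a growth-inhibiting small GTPase, with parental scores of -3.55 to -2.39 and 3.21 in TamR, and AREG, described with the ligands below. TFF1 (chr21:43782391-43786644), a secreted peptide used as a readout of E2 action, was not called: its TamR score of 11.2 was above the parental scores of 9.82 to 10.8 by 0.394 times their range.

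**Figure D5:**
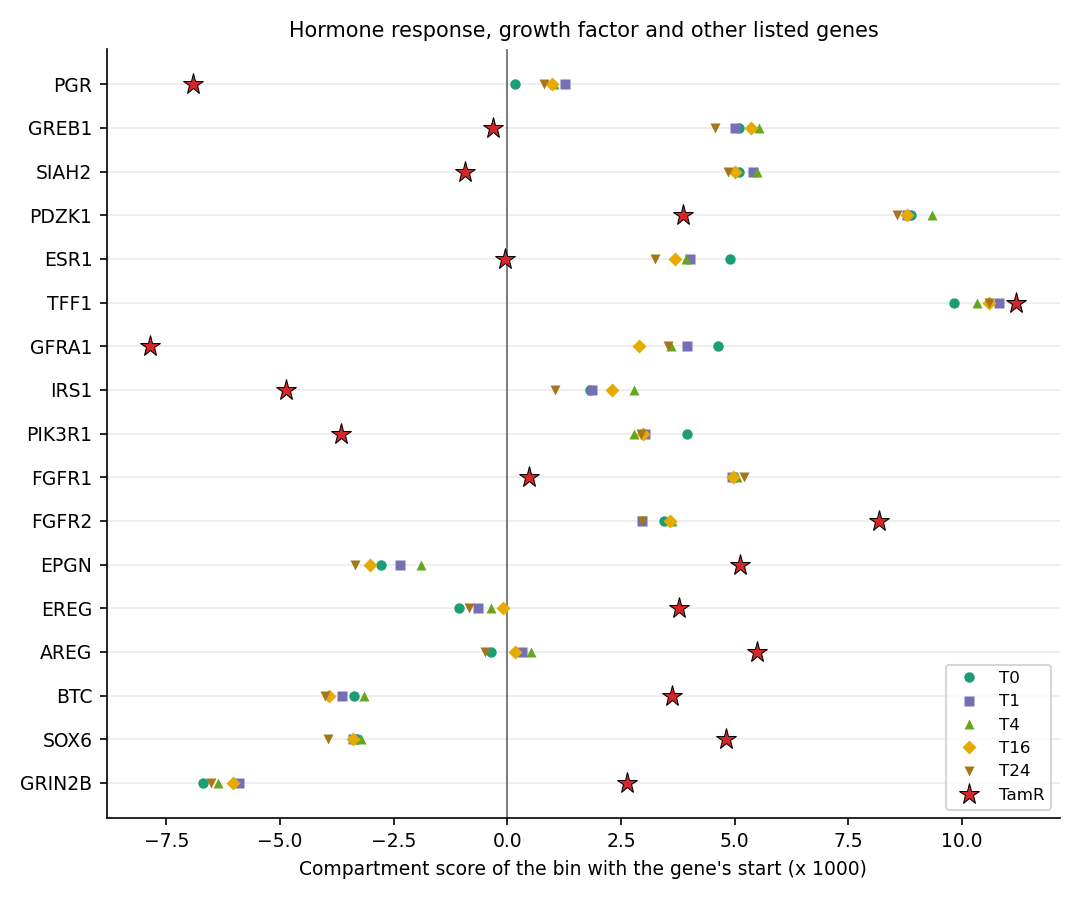
Compartment score (horizontal axis, times 1000) of the bin that holds the start of each gene (vertical axis), with stars for TamR and other symbols for the parental libraries. PGR, GREB1, SIAH2, ESR1, GFRA1, IRS1 and PIK3R1 have TamR below 0, ESR1 only just, and all parental libraries above 0. EPGN, EREG, BTC, SOX6 and GRIN2B have the reverse.

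ESR1, the estrogen receptor itself (chr6:151977826-152450754), scored 4.90 at T0, 4.03 at T1, 3.94 at T4, 3.68 at T16, 3.26 at T24 and -0.0508 in TamR. All parental libraries were in A and TamR was just below 0. TamR was below all parental libraries by 2.01 times their range, which is short of the limit for a call. The 26 scored markers of luminal epithelium, the cell type of this line, gave 0 calls in either direction on the deposited scores, 2 down on the rank scale, 2 down after chromosome means and 4 down after arm means were subtracted. Of these 26, 25 were in A by the parental mean and 22 in TamR. Their median difference was -0.949, with single differences from -4.01 to 2.67. TamR was below the parental range at 14 of these starts and above it at 4. KRT8 and KRT18, keratins of luminal cells, shared a bin at 13.5 in the parental mean and 13.9 in TamR, and CDH1, which encodes E-cadherin, was at 11.02 and 10.7. GATA3, a luminal transcription factor, had a parental mean of 1.30 and a TamR score of -0.790, and was not called. Of 30 basal and mesenchymal genes, 2 were called up, ACTA2 with a difference of 5.90 and PRRX1 with 2.05, and the latter stayed in B. None of that list was called down on the deposited scores. The counts were 5 up and 2 down on the rank scale, 2 and 1 after chromosome means and 4 and 0 after arm means were subtracted.

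Of 39 growth factor ligands, 6 were called up (15.4%) and 6 down (15.4%), beside 5.62% and 4.5% of all starts, and the median difference was 0.245. Of the 6 up, 4 were ligands that activate the EGF receptor and lie next to each other on chromosome 4: EPGN, EREG, AREG and BTC. They lay in 1 region of 2200 Kb (chr4:74200001-76400000), the 16th by mean difference, so they are not separate observations. The mean score of that region was -3.90 at T0, -3.63 at T1, -3.71 at T4, -3.95 at T16, -4.26 at T24 and 3.32 in TamR. EPGN (chr4:75174187-75182506) scored -3.36 to -1.91 in the parental libraries and 5.11 in TamR. BTC (chr4:75669969-75719733) scored -4.01 to -3.16 and 3.62. AREG (chr4:75310853-75320722) lay at the border already, with -0.492 to 0.520 in the parental libraries, and scored 5.49 in TamR. EREG scored -1.05 to -0.0855 and 3.77. The other 17 starts of the region, named after their values were seen, include ALB and AFP, which encode serum albumin and alpha-fetoprotein, and the chemokines CXCL8, CXCL1, CXCL2, CXCL3, CXCL5 and CXCL6. CXCL8 had a parental mean of -6.80 and a TamR score of 3.57.

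Outside chromosome 4 the ligands called up were WNT5A, a noncanonical Wnt ligand, with parental scores of 1.98 to 2.45 and 8.09 in TamR, and TNFSF11, the cytokine RANKL, with -2.42 to -1.41 and 2.82. The down calls were FGF10 (difference -5.44), FGF7 (-4.58), NRG4 (-4.20), NRG3 (-3.60), FGF18 (-3.14) and BMP4 (-2.74). FGF10 and FGF7, both ligands of the epithelial form of FGFR2, were in B in every parental library, between -2.88 and -1.80, and at -8.14 and -6.70 in TamR.

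Receptors and their adaptors were called mainly down, with 6 of 36 down (16.7%) and 1 up (2.78%), beside 4.5% and 5.62% of all starts. The rank scale gave 8 down and 1 up. The list was chosen with earlier results of these data known, so its counts are no test of a direction for receptors. GFRA1 and IRS1, described above, had the largest differences, and IRS1 (chr2:227596028-227664536) scored 1.83, 1.85, 2.79, 2.29 and 1.05 in the parental libraries in order of time and -4.86 in TamR. GFRA2, the co-receptor for neurturin, was at 3.22 to 3.85 in the parental libraries and at -1.88 in TamR. FGFR1 (chr8:38257733-38326352) had parental scores of 4.95 to 5.20 and scored 0.481 in TamR. ROR1 was also called down, with a difference of -2.15, and stayed in A. The up call was FGFR2 (chr10:123237846-123357972), a fibroblast growth factor receptor of epithelial cells, which scored 3.45 at T0, 2.96 at T1, 3.63 at T4, 3.57 at T16, 2.96 at T24 and 8.18 in TamR. FGFR1 and FGFR2 thus differed from the parental cells in opposite directions.

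Of 26 genes of the phosphoinositide 3-kinase pathway, 4 (15.4%) were called down and 0 up, beside 4.5% and 5.62% of all starts. None was called up on any of the 4 scales, which rescale the same libraries. This list too was chosen with earlier results known, so its counts are no test of a direction. The median difference was -1.41, close to the -1.31 of the list of estrogen and tamoxifen metabolism. PIK3R1 (chr5:67511568-67597649), the regulatory subunit that restrains the kinase at rest, scored 3.95, 3.03, 2.78, 2.99 and 2.94 in the parental libraries in order of time and -3.66 in TamR. EIF4EBP1, MTOR and RHEB had differences of -2.81, -1.82 and -1.77 and remained in A. MTOR scored 10.7 to 11.2 in the parental libraries and 9.17 in TamR.

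The lists of this paragraph gave at most 2 calls each in a direction, beside 5.62% up and 4.5% down of all starts. Among 24 genes of the G1 phase, 2 were called up (8.33%) and 1 down (4.17%). CCNE2, which encodes cyclin E2, went from 2.44 to 3.13 in the parental libraries to 6.84 in TamR, E2F3 had a difference of 3.22 and CCND3 one of -1.50. The counts were 3 up and 0 down on the rank scale, 2 and 0 after chromosome means and 1 and 1 after arm means were subtracted. Of 27 coregulators of the estrogen receptor, NCOA3 (also known as AIB1) was the only call (3.70% up), with parental scores of 5.89 to 6.58 and 9.60 in TamR. This call was lost after chromosome means were subtracted, which left 0 up and 1 down in the list. Of 35 genes of estrogen and tamoxifen metabolism, FMO1 and HSD17B2 were called up (5.71%), with differences of 4.07 and 3.49. The list turned to 1 up and 3 down on the rank scale and 1 up and 2 down after arm means were subtracted. ABCC5 was the only call among 22 drug efflux transporters (4.55% down, difference -1.88), and on the rank scale the list had 1 up and 0 down. SOX6 (difference 8.26) and SOX11 (3.57) were called up among 18 SOX genes (11.1%), and 0 were called down on any scale. SOX11 remained in B, at -1.91.

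Neuronal synapse and adhesion genes, most of which lay in B, were called in both directions, 5 of 52 up (9.62%) and 6 down (11.5%). All starts had 5.62% up and 4.5% down. The median parental score of the list, -6.25, lay in the second-lowest decile of bins, where 18.1% were called up and 2.87% down. GRIN2B, a subunit of the NMDA receptor (chr12:13590876-14134936), scored -6.68 at T0, -5.89 at T1, -6.37 at T4, -6.04 at T16, -6.52 at T24 and 2.63 in TamR. DLGAP2 had a difference of 4.74. NTM, a neuronal adhesion molecule, scored -3.12 to -2.12 in the parental libraries and -8.80 in TamR, and GRIA1 and LSAMP had differences of -3.92 and -3.16. The order of the directions in this list changed with the scale, with 2 up and 6 down on the rank scale, 6 and 4 after chromosome means and 5 and 2 after arm means were subtracted.

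Among 19 gene families read in the same way, the zinc finger genes, the largest family, had the most calls. By share of up calls, 2 small families were above them. These were taste receptors (25%, 4 of 12 bins) and type I interferons (23.5%, 2 of 6 bins), the latter with 1 gene up on each other scale. Of 491 genes named ZNF, 103 (21.0%) were called up and 6 (1.22%) down, in 45 and 5 of 336 bins. All starts had 5.62% up and 4.5% down. The up calls were mainly on chromosome 19, with 90 of 246 genes (36.6%, 32 of 130 bins) up and 0 down, against 13 up and 6 down of 245 on the other autosomes, where the rank scale gave 7 up and 12 down. On chromosome 19 the up calls numbered 99 on the rank scale, 77 (with 1 down) after chromosome means and 75 after arm means were subtracted. The median score of these 246 starts was 4.75 in the parental mean and 10.3 in TamR. On the long arm 85 of 163 starts were called and on the short arm 5 of 83, with median differences of 4.93 and 3.75. The calls included 2 further regions, chr19:53500001-54000000 with 10 ZNF genes among 15 starts and chr19:52400001-53000000 with 16 among 17. Both were in A throughout, at 3.13 to 4.02 and 4.86 to 5.35 in the parental libraries and at 10.9 and 10.1 in TamR. The other 1233 genes of chromosome 19 had 58 up and 12 down on the deposited scores, but 70 up and 173 down once chromosome means were subtracted, so their direction is not settled by these scores. These paralogs lie side by side and share bins, so neighbouring calls are not separate observations.

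Olfactory receptors were called up in 42 of 400 starts (10.5%, 20 of 168 bins) and down in 0, but on the rank scale the counts were 7 up and 5 down. Their median score was -6.69 in the parental mean and -3.88 in TamR. In the 3 lowest deciles of the parental mean, 13.4% to 18.1% of all bins were called up. The share of up calls was thus not particular to this family. The 6 HOX genes called up of 39, HOXC6 and HOXC9 to HOXC13, shared 1 bin with a difference of 3.81, and the count was 6 up and 0 down on every scale. Potassium channels had 4 up (4.30%) and 10 down (10.8%) of 93, beside 5.62% and 4.5% of all starts. Keratins and serpins had 0 in either direction of 55 and 34. On the rank scale 10 keratins were called up, and 7 after arm means were subtracted. The families described here were picked after their values were seen.

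The calls were unevenly placed over the chromosome arms. The short arm of chromosome 20 had the highest share of up calls, 26.0% of 262 bins, with 0.763% down and a mean difference of 2.13. Its long arm had 4.48% up and 14.3% down. The short arms of chromosomes 7 and 18 had 19.1% and 18.8% up. Down calls were most frequent on the short arm of chromosome 8 (15.2%), the long arm of chromosome 3 (14.8%, beside 14.1% up), 20q (14.3%) and 5q (14.1%). Differences between arm means made up 6.23% of the variance of the differences over bins and those between chromosome means 2.91%. After arm means were subtracted, 2476 bins were up and 1966 down. Whether copy number differed between TamR and the parental cells was not analysed here.

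Called bins were poor in genes. They held 4.47 protein-coding starts per Mb when up and 4.36 when down, against 7.65 in bins not called, and had a median GC content of 39.0% and 37.8% against 40.2%. The number of HindIII sites was close, with medians of 31, 31 and 29 per bin. Within the 3 lowest deciles of the parental score, bins called up held 2.07 starts per Mb against 1.88 in bins not called. In the 4 middle deciles the up bins held 6.10 starts per Mb, the down bins 2.16 and the bins not called 5.62, with median GC contents of 40.4%, 36.8% and 39.7%. Down bins from this middle range were thus the poorer in genes and in GC of the 3 kinds.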

How the data were processed

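TCC contact maps of 5 parental T47D libraries (T0, T1, T4, T16 and T24) and 1 TamR library were used. The deposited value is a score for each 100 Kb bin, the first eigenvector, which the authors computed with HiCLib from reads aligned to hg19 with bowtie2, after filtering, iterative correction and removal of contacts within chromosomes, as described in the methods of the study. Scores of 0 mark bins without a value and were left out, and signs were used as deposited. Contact counts were not part of these files, so depth and its precision are unknown.

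Each library was its own group, since each condition had 1 library, and no test was made. A bin was called when the TamR score lay at least 3 times the range of the 5 parental scores beyond that range. Regions were runs of at least 5 adjacent called bins in the same direction, ended by a bin without a score, and ranked by mean difference from the parental mean. Starts of protein-coding genes came from the GENCODE annotation on GRCh37, whose lengths equal those of the hg19 bins for 23 of 23 chromosomes, and GC content and HindIII sites from that sequence. Of 375 entries in 12 gene lists, 371 were scored, 3 were on chromosome X and 1 lay in a bin without a score.

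The members, lists and families were chosen with earlier results of these data known. Genes were named by a rule: in the 10 leading regions of each direction, all starts if up to 6, otherwise the 4 with the largest difference and any in a list, then up to 3 called members per list and direction, and GREB1, ESR1, PGR and TFF1. Some genes that the rule names are not reported here. Genes named beyond that rule are marked in the text or belong to the families. Alternatives were other distances beyond the range, other scalings and centrings, a minimum range, each parental library left out, chromosome X, 500 Kb bins, other run lengths, other parental references and gene bodies. The code that calls bins and runs was tried on simulated scores with planted shifts larger than the mean difference of any region here. Noise was drawn independently for each bin, so false runs among correlated neighbouring bins were not measured by it. Python 3.11.15, numpy 2.4.6, pandas 2.3.3, scipy 1.17.1 and matplotlib 3.10.9 were used.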

Additional observations from a re-analysis of the deposited data

Results flagged for a closer look

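Chromosome X was outside the comparison, which was made over autosomes, and it showed calls as well. Of its 1414 bins scored in all 6 libraries, 14.3% were called in TamR by the same rule, 142 up and 60 down. The parental libraries against the other 4 gave 0.354% to 1.84% of these bins, and TamR against the same sets of 4 gave 16.8% to 22.7%. The correlation of TamR with the parental mean over these bins was 0.785.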

How the results depend on the processing

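Over 260 comparisons of the 20 leading regions and 1288 of 92 named genes with an alternative, 0 changed direction. The regions were chosen for large differences in these same libraries, and the genes mainly from these regions or from called list members. Reversals were thus unlikely by selection, and their absence is no test of direction. The difference moved by at least the SD of the 5 parental values in 55 and 286 of the comparisons. Counts depend on the distance chosen beyond the range, by construction. At 1 time the range, 5775 bins were up and 6165 down (11940), with 287 and 298 regions and 3108 and 3814 gene starts. At 2 times, 3695 were up and 3332 down (7027), with 209 and 152 regions and 1859 and 1601 starts. At 5 times, 1111 were up and 725 down (1836), with 50 and 14 regions and 448 and 268 starts. With the range of a bin kept at or above its median, 2731 bins were called, of them 1080 down, with 692 starts up and 344 down. On the rank scale regions numbered 81 up and 109 down and the median absolute difference was 1.4997, and the cause was not tested. In 500 Kb bins, 651 were up and 590 down (1241), with 276 and 270 regions, 1695 and 1453 starts and a median absolute difference of 1.33. Regions of at least 10 bins numbered 50 up and 30 down. Against T0 alone the median absolute difference was 1.501.

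With 1 parental library left out, which narrows the range by construction, 5083 to 6945 bins were called, 2717 to 3655 up and 2366 to 3290 down, with 146 to 195 regions up and 95 to 129 down, and 1253 to 1750 starts up and 1097 to 1599 down. Without T24 each of these counts but that of up regions moved by over 1.5 times, and without T0 the down starts (1466) and down regions (129) did. No paired analysis was possible because no condition had more than 1 library. With 1 TamR library and unknown depth, no difference of a single bin has a replicate check.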
